A study of Mus musculus with 16 samples.

Results

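Sprouty, Spred, Dusp6, Il17rd and Etv genes form the negative feedback and the transcriptional output of fibroblast growth factor (Fgf) signalling. The 10 genes described here were taken by name from a deposited table of 30286 distinct gene symbols: Spry1, Spry2, Spry4, Spred1, Spred2, Dusp6, Etv1, Etv4, Etv5 and Il17rd. All 10 were present, each in a single row and with a mean of at least 1 TPM (transcript abundance corrected for transcript length and library size). The embryos were C57BL/6 mice at embryonic day 12, either wild-type (WT) or homozygous for a knockout (KO) of Esrp1, a gene for an epithelial splicing regulator. Facial prominences, the buds that fuse into the upper lip, palate and jaws, were divided surgically into surface ectoderm and the mesenchyme below it. This gave WT ectoderm, KO ectoderm, WT mesenchyme and KO mesenchyme, with 4 libraries per group and 6 to 7 embryos pooled in each library. The table holds 1 value per group, so no difference below has an error, a replicate check or a test, and "higher" and "lower" describe deposited values.

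Fgf ligands bind receptor tyrosine kinases and start a relay through Ras, Raf and Mek to the kinase Erk. Erk signalling induces the Etv transcription factors of the Pea3 group, and it also induces inhibitors that act back on the relay at several levels: Sprouty and Spred proteins at Ras and Raf, Dusp6 as a phosphatase of Erk, and Il17rd (Sef) at the receptor and downstream of Mek. In the face, ligands made by the ectoderm act on receptors of the mesenchyme and the reverse, and the transcript levels of these genes are widely used as readouts of the pathway in embryos.

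Promoters are shown for 4 of the genes that were higher in KO ectoderm: 3 that hold the letters marked below, chosen for that after the search, and that of Etv1, which holds neither. They are 300 bases long, 250 before and 50 after the start of transcription, from RefSeq on GRCm38.p6. The RefSeq table held 10 promoters for 8 of the 10 genes, and none for Etv4 and Spry4, which were also higher in KO ectoderm. Capitals mark CGGAA, the centre of many Ets binding sites, and TGAATG, the first letters of the octamer bound by the repressor Cic, on either strand. Dusp6 lies at chr10:99262981-99263280 (plus strand), Etv5 at the downstream of its 2 listed starts at chr16:22438319-22438618 (minus strand), Il17rd at chr14:27038751-27039050 (plus strand) and Etv1 at the upstream of its 2 listed starts at chr12:38779832-38780131 (plus strand).
Dusp6: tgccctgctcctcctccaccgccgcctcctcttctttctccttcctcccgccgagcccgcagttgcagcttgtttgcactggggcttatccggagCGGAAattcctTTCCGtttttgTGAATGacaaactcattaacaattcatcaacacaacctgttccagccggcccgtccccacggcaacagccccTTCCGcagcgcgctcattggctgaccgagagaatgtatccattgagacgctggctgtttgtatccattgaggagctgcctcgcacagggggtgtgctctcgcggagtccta
Etv5: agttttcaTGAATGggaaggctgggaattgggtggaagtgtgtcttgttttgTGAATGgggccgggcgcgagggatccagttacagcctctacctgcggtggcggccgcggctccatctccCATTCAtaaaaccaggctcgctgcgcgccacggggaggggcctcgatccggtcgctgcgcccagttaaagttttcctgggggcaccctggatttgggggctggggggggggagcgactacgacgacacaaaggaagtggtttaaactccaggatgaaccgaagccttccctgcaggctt
Il17rd: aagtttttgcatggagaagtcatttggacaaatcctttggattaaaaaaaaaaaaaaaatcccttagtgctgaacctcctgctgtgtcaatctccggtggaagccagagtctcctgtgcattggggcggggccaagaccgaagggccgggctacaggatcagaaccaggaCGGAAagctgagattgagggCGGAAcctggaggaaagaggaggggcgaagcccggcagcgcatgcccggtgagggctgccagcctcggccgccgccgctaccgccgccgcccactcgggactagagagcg
Etv1: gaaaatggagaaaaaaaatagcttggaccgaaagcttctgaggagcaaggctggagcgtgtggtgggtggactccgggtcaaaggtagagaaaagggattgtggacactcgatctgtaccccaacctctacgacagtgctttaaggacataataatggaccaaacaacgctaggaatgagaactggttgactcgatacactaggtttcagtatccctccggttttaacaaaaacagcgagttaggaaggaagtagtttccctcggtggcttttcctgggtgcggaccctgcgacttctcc

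The Dusp6 promoter held CGGAA 3 times and TGAATG once, the Etv5 promoter TGAATG 3 times and the Il17rd promoter CGGAA 2 times. Neither was in the 2 Etv1 promoters or in the upstream one of Etv5. Of the 10 promoters 5 held CGGAA (Spry2, Spred1, Spred2, Dusp6 and Il17rd), and 29.9% of the 32851 promoters in the table did. The GC content of these 5 ran from 57.0 to 72.3%, and that of all 10 from 44.0 to 74.0%. The median of all promoters in the table was 52.7%. The part of GC content in the counts of letters was not tested. TGAATG occurred in 2 of 10, against 12.7% of all. These short letters were added after longer ones had been searched on both strands: CCGGAAGT, ACCGGAAG, TGAATGAA and TGAGTCA (the AP-1 letters, with TGACTCA on the other strand) were in none of the 10 promoters and in 3.89%, 2.3%, 1.3% and 5.2% of all. The E-box letters CAGCTG were in 1 of 10, the upstream Etv5 promoter, and in 16.3% of all. A match describes letters in this window and not a bound site.

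The tissue labels were checked against marker genes. A list of 12 surface ectoderm genes summed to 3050 TPM in WT ectoderm and 2390 in KO ectoderm, and to 29.1 and 28.8 in WT and KO mesenchyme. Esrp1 itself had 170.02 TPM in WT and 62.88 TPM in KO ectoderm, and 1.01 and 1.0 TPM in mesenchyme. The part of the gene that is deleted is not given in the sources used here, so this value does not count intact transcripts. A list of 22 mesenchyme genes summed to 390 and 820 TPM in ectoderm (WT and KO) and to 4380 and 3180 TPM in mesenchyme (WT and KO), and none of these 22 or the 12 ectoderm genes was at 0 in any group. The median log2 ratio of KO to WT over all genes was 0.049 in ectoderm and -0.122 in mesenchyme, and 0.021 in mesenchyme after quantile normalization.

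**Figure D1:**
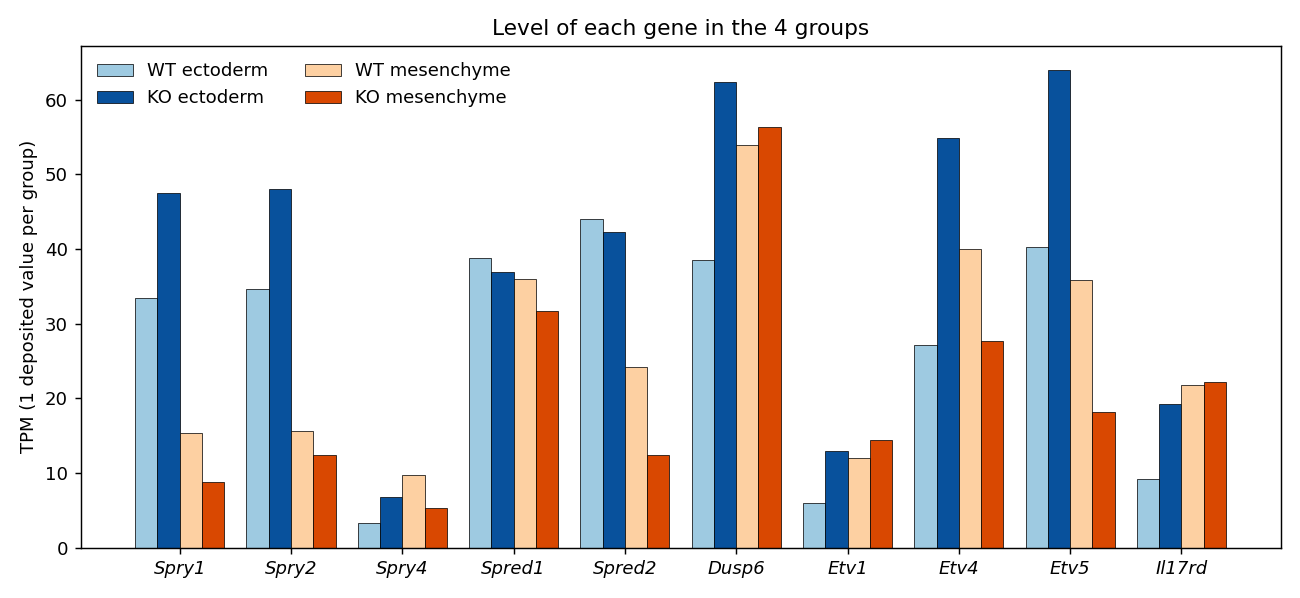
TPM of the 10 genes (bars, 1 deposited value per group, linear axis from 0) in WT and KO ectoderm (light and dark blue) and WT and KO mesenchyme (light and dark orange). KO ectoderm is the highest of the 4 groups for Spry1, Spry2, Dusp6, Etv4 and Etv5, and KO mesenchyme is the lowest for Spry1, Spry2, Spred1, Spred2 and Etv5.

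All 10 are protein-coding genes in GENCODE M21 on GRCm38. Among the inhibitors, Spry1 lies at chr3:37639947-37644598, Spry2 at chr14:105891947-105896819, Spred1 at chr2:117121374-117182279, Spred2 at chr11:19924375-20024026, Dusp6 at chr10:99263231-99267489 and Il17rd at chr14:27038941-27107286. Of the Etv genes, Etv1 lies at chr12:38779380-38870484, Etv4 at chr11:101769742-101785371 and Etv5 at chr16:22381309-22439719. Spry1 shares 710 bases with the unclassified transcript Gm42922 on the opposite strand, and Spry4, whose position is not reported here, shares 71 and 119 bases with the small RNA genes Gm27369 and Gm27804, also on the opposite strand. Whether reads were assigned by strand is not known from the labels.

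Levels of the 10 genes ran from 3.34 to 63.98 TPM. KO ectoderm was the highest group for 5 of 10, against 16.4% of all genes, and KO mesenchyme the lowest for 5 of 10, against 35.2%. Dusp6 and Etv5 had the highest single values, and Spry4 and Etv1 were the lowest expressed in WT ectoderm. The widest spread over the 4 groups was that of Spry1, whose highest value was 5.37 times its lowest, followed by Spry2 at 3.89, Spred2 at 3.53 and Etv5 at 3.51. Spred1 had the narrowest, 1.23. Which neighbouring levels differ beyond the variation between libraries cannot be told from 1 value per group.

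In ectoderm, the Etv factors, Il17rd, Spry4 and Dusp6 had higher values in KO than in WT, and the Spred genes were almost level. Counted at 1.5-fold or more on values of TPM plus 1, which is a log2 ratio of 0.585, 6 of 10 were higher and 0 lower. Over all 13935 genes measured in this comparison, those with a mean of at least 1 TPM, 4.92% were higher and 0.452% lower by the same size. The median log2 ratio of the 10 genes was 0.67.

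The Etv genes encode Ets transcription factors that carry Fgf signals to the nucleus. Etv4 stood at 27.18 TPM in ectoderm of WT embryos and at 54.91 in that of KO embryos, a log2 ratio of 0.99. Etv1 was at 6.03 and 12.94 TPM, also 0.99, and Etv5 at 40.3 and 63.98 TPM, 0.65. All 3 were thus higher in KO ectoderm, and their sum went from 73.5 to 132 TPM. A ratio as high as that of Etv4 or higher was found for 1.69% of all genes measured, and for 4.15% in the case of Etv5. By TPM alone, without the added 1, KO ectoderm had 2.02 times the WT level of Etv4, 2.15 times that of Etv1 and 1.59 times that of Etv5.

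Il17rd, a transmembrane inhibitor of the pathway, had 9.25 TPM in WT and 19.27 TPM in KO ectoderm, a log2 ratio of 0.98 and 2.08 times the WT level by TPM alone. Dusp6, the phosphatase that removes the activating phosphates of Erk, was at 38.48 and 62.3 TPM, 0.68. These inhibitors at the receptor and at Erk were both past 1.5-fold.

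Among the Sprouty genes, which block Ras and Raf activation, Spry4 was at 3.34 and 6.8 TPM in WT and KO ectoderm, a log2 ratio of 0.85. Spry1 was at 33.48 and 47.44 TPM (0.49) and Spry2 at 34.65 and 48.06 TPM (0.46). Spry1 and Spry2 were therefore also higher in KO ectoderm but within 1.5-fold, with ratios that 6.51% and 7.2% of all genes reached or passed. The sum of the 3 was 71.5 TPM in WT and 102 in KO.

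The Spred proteins share a Sprouty-like domain and act on Ras through neurofibromin. Spred1 had 38.84 TPM in WT and 36.92 TPM in KO ectoderm, and Spred2 43.94 and 42.26 TPM. Their log2 ratios, -0.07 and -0.06, were below 0, and those of the other 8 genes were above 0, as were 64.2% of all 13935.

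Markers of other cells were also higher in KO ectoderm. Of 22 mesenchyme genes 18 were at least 1.5-fold higher, as were 10 of 10 endothelial genes (20.9 TPM summed in WT and 56.1 in KO). So were 7 of 7 measured muscle genes (17.9 and 72.1 TPM over all 10 listed) and 10 of 12 measured genes of nasal and olfactory ectoderm. That last list summed to 131 TPM in WT ectoderm and 263 in KO ectoderm, and to 123 and 78.8 in WT and KO mesenchyme. Of its genes measured in both WT layers, 6 of 11 were at least 2-fold higher in ectoderm and 3 in mesenchyme. These 3 were Dlx5, Ebf2 and Emx2, at 6.23, 2.16 and 2.62 TPM in WT ectoderm and 45.77, 17.65 and 20.52 TPM in WT mesenchyme. Neuron genes had 6 of 8 higher (111 and 146 TPM over all 10 listed), macrophage genes 4 of 8 and red blood cell genes 1 of 10. No gene of these lists was at 0 in any group. The part of nasal and olfactory ectoderm in the levels of the Fgf feedback genes was not tested, and in bulk tissue more cells of a kind and more RNA per cell cannot be told apart.

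The size of the gain in mesenchyme genes was set against these levels. The gain of the median mesenchyme gene in KO ectoderm equalled 10.9% of its excess in WT mesenchyme (quartiles 9.34 and 11.9, 19 genes at least 5-fold higher in mesenchyme). That share is an estimate that treats the gain as tissue with the WT mesenchyme profile. With it subtracted from KO ectoderm and the rest scaled back up to the full level (division by 1 minus the share), 7 of the 10 feedback and Etv genes were at least 1.5-fold higher, against 2.61% of 13830 genes. The log2 ratio was then 1.03 for Etv4, 1.0 for Etv1, 0.96 for Il17rd, 0.78 for Spry4, 0.73 for Etv5, 0.70 for Dusp6 and 0.60 for Spry1. Without scaling up, which lowers the median of all genes to -0.12, 4 of 10 were past 1.5-fold (Etv4 at 0.87, Etv1 at 0.84, Il17rd at 0.81 and Spry4 at 0.64), against 1.47% of 13709 genes, with Etv5 at 0.57, Dusp6 at 0.54 and Spry1 at 0.44. The subtraction rests on this assumed profile and is not a test, so the part of mesenchyme tissue in these levels was not tested. For 6 of the 10 (Spry1, Spry2, Dusp6, Etv1, Etv4 and Etv5) the value in KO ectoderm was above both WT layers, as it was for 20.7% of all 14328 genes. Spry4 and Il17rd in KO ectoderm lay between WT ectoderm and WT mesenchyme.

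**Figure D2:**
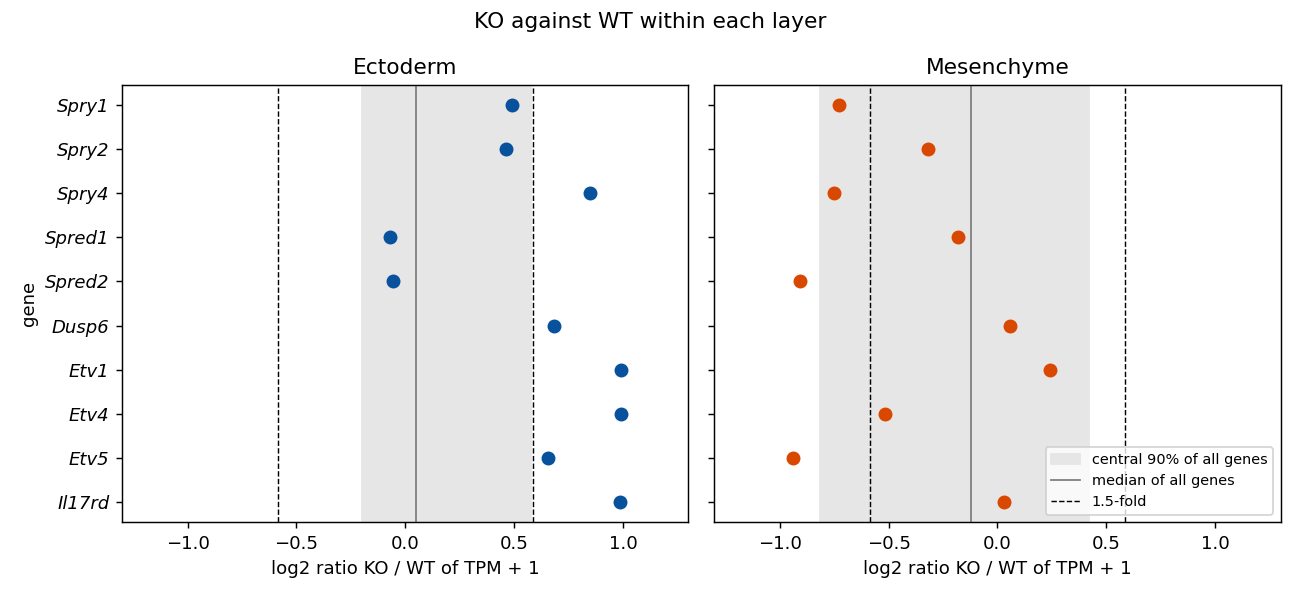
Log2 ratio of KO to WT (TPM plus 1, horizontal axis) for each of the 10 genes in ectoderm (left, blue) and mesenchyme (right, orange), with the central 90% of all genes (grey), their median (line) and 1.5-fold (dashed). In ectoderm 6 points lie right of 1.5-fold, and in mesenchyme 4 points lie left of it.

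In mesenchyme the picture differed from gene to gene: Etv5, Spred2, Spry4 and Spry1 had lower values in KO, while Dusp6, Il17rd and Etv1 did not. At 1.5-fold 4 of 10 were lower and 0 higher, with a median log2 ratio of -0.42. Lower values were common in this comparison, at 13.4% of 14233 genes measured, and 2.33% were higher. Marker lists moved in this layer too: 12 of 22 mesenchyme genes were lower, as were 3 of 10 endothelial and 5 of 10 muscle genes, and 6 of 10 neuron genes were higher (191 TPM summed in WT and 295 in KO). Their part in the values of the feedback genes was not tested.

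Etv5 had 35.81 TPM in WT and 18.21 TPM in KO mesenchyme, a log2 ratio of -0.94 that 2.63% of all genes reached or passed in that direction. Etv4 was at 40.05 and 27.73 TPM, -0.52, and its sign turned, to 0.09, when the trend of the ratios with transcript GC content was subtracted. Etv1 was at 12.05 and 14.42 TPM, 0.24. The 3 Etv genes therefore did not share a direction in mesenchyme as they did in ectoderm.

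Spred2 had the other low ratio, with 24.2 TPM in WT and 12.43 TPM in KO (-0.91), while its paralog Spred1 was at 35.97 and 31.65 TPM (-0.18, and 0.04 after quantile normalization). Spry4 was at 9.68 and 5.35 TPM (-0.75), Spry1 at 15.3 and 8.84 TPM (-0.73) and Spry2 at 15.65 and 12.36 TPM (-0.32). All 3 Sprouty values were lower in KO mesenchyme, with Spry2 within 1.5-fold, and their sum was 40.6 TPM in WT and 26.5 in KO. Ratios above 0 were found for only 36.5% of all genes in this comparison.

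Dusp6 and Il17rd were nearly level in mesenchyme. The WT and KO values were 53.98 and 56.33 TPM for Dusp6 (0.06), and 21.74 and 22.21 TPM for Il17rd (0.03). These 2 inhibitors, past 1.5-fold in ectoderm, thus stood at a similar level in WT and KO mesenchyme.

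Base composition moved with the ratios of mesenchyme. After the GC trend was subtracted, 2 of the 4 lower genes, Etv5 (-0.70) and Spred2 (-0.69), were still past 1.5-fold, and Spry4 was at -0.53 and Spry1 at -0.30. Of all genes 2.49% were lower by that size after the subtraction, against 13.4% before it. The libraries with 2 index barcodes instead of 1 numbered 0 in WT and 2 in KO mesenchyme, and 1 in WT and 2 in KO ectoderm. The part of this difference in the ratios was not tested, since no value per library entered. The 6 genes higher in KO ectoderm were the same 6 after the GC correction, where 4.1% of all genes were higher.

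The plot of ratios under each way of processing shows how far each value moved.

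**Figure D3:**
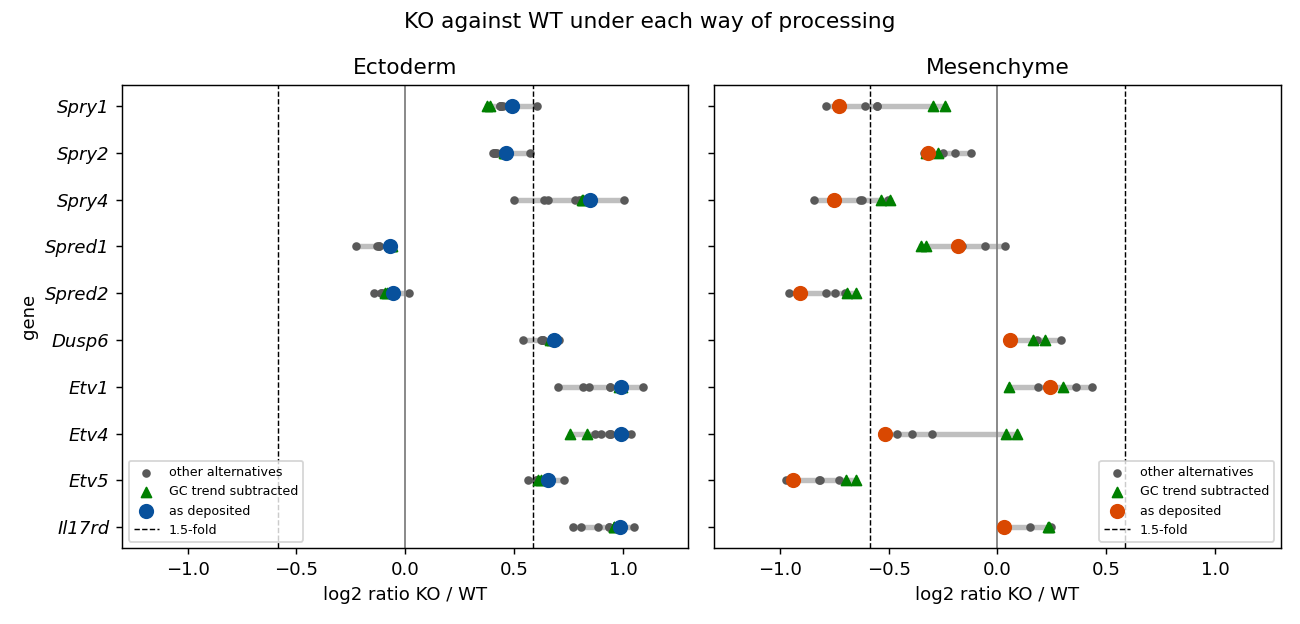
Log2 ratio of KO to WT of each gene as deposited (large points) and under the alternatives (small points, with the range as a grey bar; green triangles for subtraction of a GC trend), in ectoderm and mesenchyme, with 1.5-fold dashed. In ectoderm 8 genes stay right of 0 throughout, whereas in mesenchyme the triangles of Etv4 lie right of 0 and its other points left of it.

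Comparing the layers in WT embryos, Spry1 and Spry2 had higher values in ectoderm and Spry4 and Il17rd in mesenchyme. All 4 were found in both layers. Spry1 and Spry2 were at 15.3 and 15.65 TPM in WT mesenchyme, and Spry4 and Il17rd at 3.34 and 9.25 TPM in WT ectoderm. Spry1 was 2.19-fold and Spry2 2.21-fold higher in WT ectoderm, by TPM, whereas Spry4 was 2.9-fold and Il17rd 2.35-fold higher in WT mesenchyme. At 2-fold or more on the log2 scale of TPM plus 1, 2 of the 10 were higher in each layer, against 6.88% (ectoderm) and 12.1% (mesenchyme) of 14242 genes. Etv1 (log2 ratio -0.89), Etv4 (-0.54) and Dusp6 (-0.48) leaned to mesenchyme, Spred2 (0.84) to ectoderm, and Etv5 (0.17) and Spred1 (0.11) were near level.

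In KO embryos the balance lay further toward ectoderm. Spry1 was 5.37-fold, Spry2 3.89-fold, Etv5 3.51-fold and Spred2 3.4-fold higher in KO ectoderm than in KO mesenchyme, and no gene was 2-fold higher in KO mesenchyme. These 4 of 10 compare with 9.06% of 14411 genes, and 6.88% of genes were 2-fold higher in KO mesenchyme. Etv4 was just short of 2-fold, at 54.91 and 27.73 TPM (log2 ratio 0.96). Spry4 and Il17rd, more than 2-fold apart in WT, were at 6.8 and 5.35 TPM and at 19.27 and 22.21 TPM in KO ectoderm and mesenchyme.

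**Figure D4:**
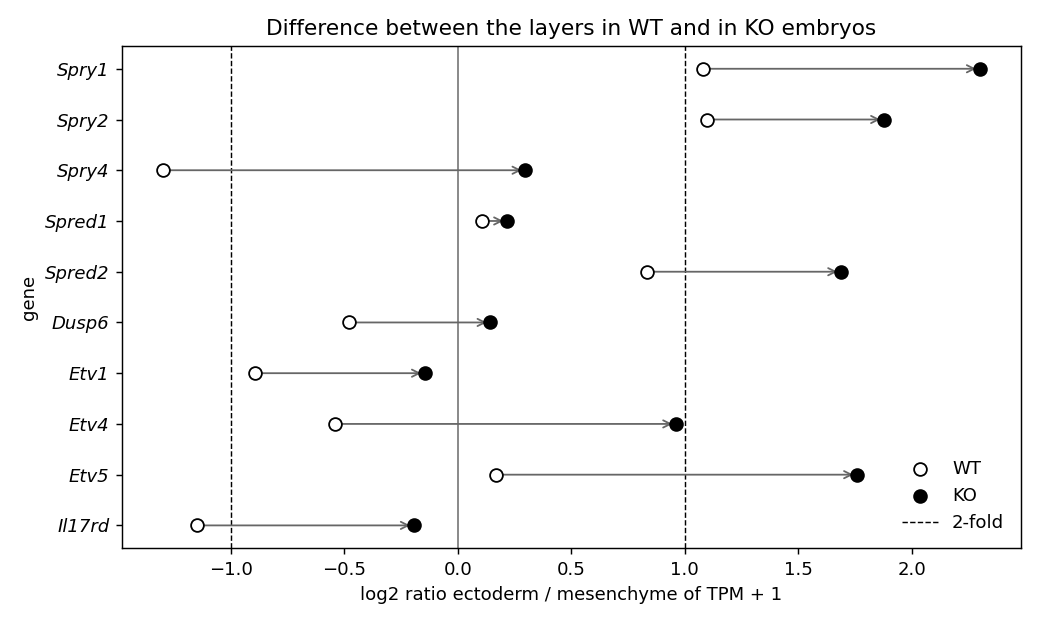
Log2 ratio of ectoderm to mesenchyme (TPM plus 1) of each gene in WT (open circles) and KO embryos (filled circles), joined by arrows, with 2-fold dashed. Every arrow points to the right, from 0.11 for Spred1 to 1.6 for Spry4.

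The shift between the layers equals the KO effect in ectoderm minus that in mesenchyme. It was above 0 for 10 of 10 genes (9 of 10 after quantile normalization, centring on the median of all genes or subtraction of the mesenchyme share without scaling up, where Spred1 turned), and for 67.5% of all genes. It was at least 2-fold for Spry4 (log2 difference 1.6), Etv5 (1.59), Etv4 (1.5) and Spry1 (1.22), 4 of 10, against 7.34% of 14328 genes. In the opposite direction there were 0 of 10, against 0.593%. After subtraction of the GC trend Etv5 and Spry4 remained past 2-fold, at 1.31 and 1.35, against 2.18% of all genes. Etv4 was then at 0.68 and Spry1 at 0.69.

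Among other genes of the pathway in ectoderm, the ligands and receptors had median ratios above 0 and the relay to Erk was close to level. Over all genes the median was 0.049 and the upper quartile 0.176. Of 15 Fgf ligands 8 were measured in ectoderm. At 1.5-fold 3 were higher and 1 lower, against 4.92% and 0.452% of all 13935 genes. Fgf17, a ligand related to Fgf8, had 3.54 TPM in WT and 8.05 TPM in KO tissue. Fgf18 and Fgf10 were also past 1.5-fold, at 0.7 and 2.22 TPM and at 1.3 and 2.6 TPM. In WT mesenchyme Fgf18 and Fgf10 were at 7.84 and 12.1 TPM, and the part of mesenchyme tissue in their gain was not tested. Fgf20 was the 1 lower ligand, at 1.75 and 0.66 TPM, and the most abundant ligands were close to level, Fgf8 with 26.31 and 25.12 TPM and Fgf9 with 25.33 and 25.76 TPM. The median was 0.21. Of 9 receptor and Flrt genes 7 were measured and none was past 1.5-fold, with a median of 0.35. The largest ratio at 5 TPM or more was in Fgfrl1, a receptor without a kinase domain (11.66 and 17.13 TPM). Ratios were above 0 for 5 and below 0 for 2, Fgfr2 and Fgfr3. Fgfr2, the main receptor of this layer by level in that list, was at 446.69 and 366.48 TPM (-0.285). Fgfr3 was at 42.11 and 37.51 TPM (-0.163). All 9 summed to 628 TPM in WT and 586 TPM in KO ectoderm. The 25 genes of the Ras and Erk relay lay between -0.22 and 0.25, with a median of 0.04.

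Other genes induced by Erk were spread more widely. Of 17 in the list 16 were measured in ectoderm and 2 were higher, against 4.92% of all 13935 genes. These were the Erk phosphatase Dusp5 (3.57 and 6.16 TPM) and Phlda1 (11.25 and 17.93 TPM), with 0 lower and a median of 0.25. Of the 16 ratios 12 were above 0 and 4 below. Among the latter were Fos (81.09 and 63.74 TPM) and Egr1 (80.58 and 63.32 TPM), both at -0.343. Fos and Egr1 were the most abundant genes of this list in WT ectoderm. Of 21 genes in the list of other Ets factors and Cic, 18 were measured and 3 were higher, against the same 4.92%. These were Fli1, Ets1 (2.2 and 5.11 TPM) and Elk3 (13.43 and 26.14 TPM), and the median of the list was 0.06. Fli1 and Ets1 are also expressed in blood vessels, whose markers were higher in KO ectoderm, as given above. In WT mesenchyme Fli1, Ets1 and Elk3 were at 26.95, 29.87 and 67.53 TPM. The part of mesenchyme tissue or of blood vessels in the gain of these genes was not tested.

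In mesenchyme the upstream lists were lower in part, in a layer where lower values were common. At 1.5-fold 13.4% of the 14233 genes compared there were lower and 2.33% higher (median -0.122). These shares became 2.49% and 4.72% once the GC trend was subtracted. The part of base composition in the ratios of these lists was not tested. The receptor list had 3 of 8 lower and a median of -0.44: Fgfr4 (6.94 and 2.77 TPM), Fgfrl1 (30.88 and 15.21 TPM) and Fgfr1, the main receptor of this layer by level in that list (279.89 and 159.85 TPM). In the relay 6 of 25 genes were lower and 0 higher (median -0.28), with Rps6ka1, a kinase activated by Erk, the lowest (38.67 and 17.34 TPM). Among ligands 1 of 6 was lower, Fgf18 (7.84 and 4.08 TPM), and Fgf10 was at 12.1 and 8.37 TPM. Of the other Ets genes and Cic 5 of 17 were lower and 1 was higher, Erg (8.63 and 13.93 TPM). The lower ones included Elf4 at 9.86 and 4.15 TPM, Etv6 at 24.77 and 13.09 TPM and Ets2 at 67.51 and 36.86 TPM. Cic itself was also among the lower genes, at 157.29 and 98.96 TPM. Other Erk targets had 2 of 17 higher, Fos (15.5 and 42.86 TPM) and Ier3 (3.29 and 6.62 TPM), and 1 lower, Myc (22.06 and 12.09 TPM).

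**Figure D5:**
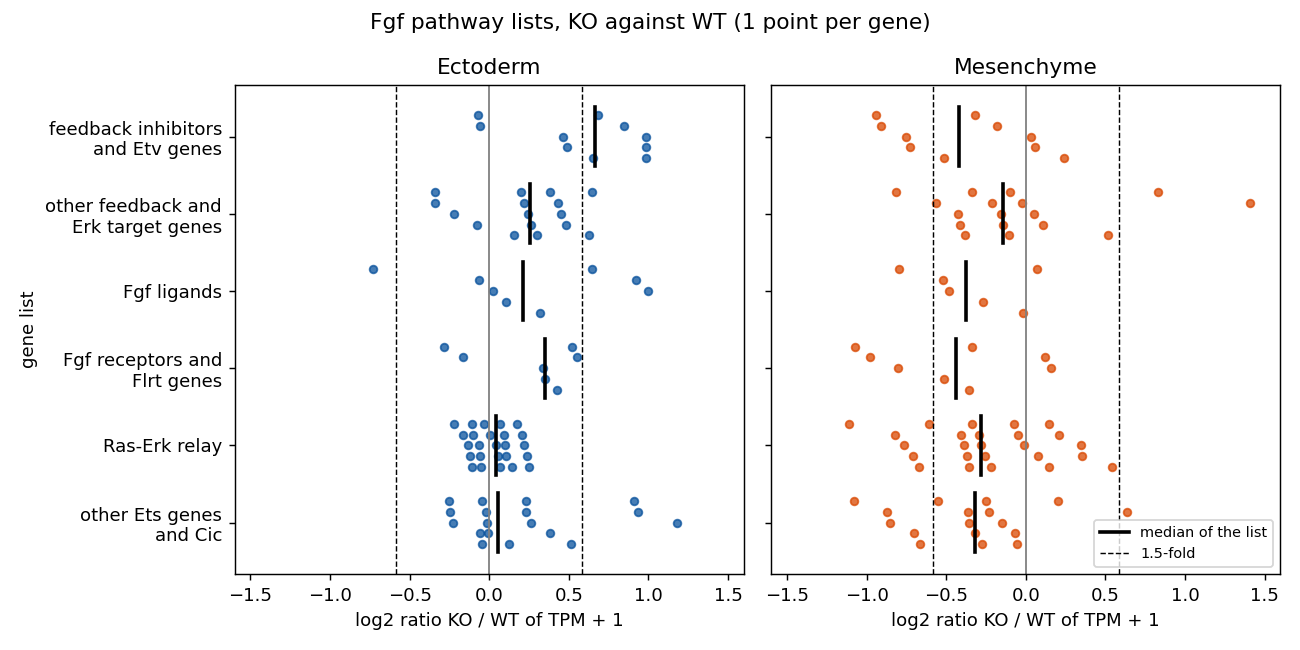
Log2 ratio of KO to WT (TPM plus 1) of every measured gene of 6 pathway lists in ectoderm (left) and mesenchyme (right), 1 point per gene with the list's median as a black bar and 1.5-fold dashed. In ectoderm the medians run from 0.04 (Ras and Erk relay) to 0.67 (feedback inhibitors and Etv genes), and in mesenchyme all 6 medians lie between -0.44 and -0.14.

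Among themselves the 10 genes fell into different shapes over the 4 groups. Likeness was measured as the distance between log2 profiles, each centred on its own mean, over 4 values. Of the 45 pairs Etv1 and Il17rd were closest (0.21), both lowest in WT ectoderm and similar in the other 3 groups. Spry1 and Spry2 followed (0.36), with both ectoderm values above both mesenchyme values. Dusp6 was 0.43 from Etv1 and 0.55 from Il17rd, and Spred2 was 0.58 from Etv5. Spry1 and Il17rd were the farthest apart (2.45).

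Genes outside the set with the most similar profiles were also listed for 4 of the members. Closest to Etv4 were Papss2 (distance 0.14, at 4.69 and 9.17 TPM in WT and KO ectoderm and 7.24 and 4.96 TPM in WT and KO mesenchyme), Penk (0.28), Tshz2 (0.31), Cpt1a (0.32) and Tnrc18 (0.32). For Etv5 these were Rhbdf1 (0.29), Wiz (0.30), Pcdhga7 (0.32), Abcg1 (0.32) and Tmem30b (0.33). Dusp6 was most like Apoe (0.08), Ccdc85b (0.13), Hist1h2bj (0.14), Hist1h2bk (0.18) and Enpp3 (0.19), and Spry4 most like Ltbp3 (0.15), Lmna (0.15), Pmepa1 (0.18), Tmem59l (0.22) and Rap1gap (0.25). With 4 values per gene such distances describe this table only.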

How the data were processed

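RNA was measured in 16 libraries in 4 groups, and the authors deposited TPM per gene symbol with a single column for each group. Per the submitters' processing notes, STAR 2.5.2a and kallisto 0.43.0 were used with the build mm10. How a group's libraries were merged, and by which tool and annotation its TPM were made, is not given in the sources used here. Depth is unknown from TPM. Of 103 symbols in several rows only the row of largest total was used. Log2 ratios were taken of TPM plus 1 (pandas 2.3.3) for genes whose mean in the groups compared reached 1 TPM, and counted at 1.5-fold between KO and WT and 2-fold between layers and between KO effects. No test was possible with 1 value per group.

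The 10 genes, the lists and the marker genes were chosen with earlier results of these data known. One marker gene is not reported here and was left out of its list. The 10 genes are all named. From other lists up to 3 genes per KO comparison were named by the largest absolute ratio if the higher group reached 5 TPM. Fgf18, Fgf10, Fgf20, Fgfr2, Fgfr3, Egr1 and Fos in ectoderm were named after their values were seen. So were Cic and Erg in mesenchyme, and Fli1, Dlx5, Ebf2 and Emx2. For Etv4, Etv5, Dusp6 and Spry4 the 5 nearest profiles among genes averaging 5 TPM or more were named, without predicted gene models. GC content was the median over transcripts of GENCODE M21 on GRCm38 (symbols matched for 99.0%), and its trend was fitted by lowess (fraction 0.3, mean of at least 5 TPM, statsmodels 0.14.6). The computations were tested on simulated data. The alternatives were other pseudocounts, filters and scalings, summing of repeated rows, exchanged fold sizes, GC trends and subtraction of a mesenchyme share with the rest scaled up. The subtraction without scaling up, the GC trend of the longest transcript and the short promoter letters were added after the data were seen.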

Additional observations from a re-analysis of the deposited data

Results flagged for a closer look

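For 5 genes the deposited values moved in opposite directions in the layers, higher in KO than WT ectoderm and lower in KO than WT mesenchyme. The KO effect in ectoderm minus that in mesenchyme was a log2 difference of 1.22 for Spry1, 0.78 for Spry2, 1.6 for Spry4, 1.5 for Etv4 and 1.59 for Etv5. This difference was not tested, because each group has 1 value. Opposite directions of this kind, of any size, were found for 40.7% of 14328 genes. For Etv4 they were not found after subtraction of a GC trend, when its log2 ratio in mesenchyme was 0.09 (0.04 with the longest transcript).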

How the results depend on the processing

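No paired analysis was possible because the table has 1 value per group, and for the same reason no library could be left out. Under the 13 alternatives no gene past a fold threshold changed sign. In ectoderm the count of 6 higher genes lay between 4 and 7, except at 2-fold, where it was 0 (1.61% of all genes were higher at that size), since the log2 ratios of Etv1, Etv4 and Il17rd fell just short on the scale of TPM plus 1. The count of 4 lower genes in mesenchyme was 3 after quantile normalization and 2 with a pseudocount of 5 TPM, against 6.88% and 8.0% of all genes. It was 2 after either GC correction (2.49% of all genes, 2.12% with the longest transcript) and 0 at 2-fold (1.83%). The 4 genes whose KO effects differed by 2-fold between layers became 9 at 1.5-fold, where 22.9% of all genes were counted, and 2 after either GC correction, against 2.18% of all genes (2.2% with the longest transcript). For the layers in WT, the 2 genes higher in ectoderm and the 2 higher in mesenchyme both became 0 with a pseudocount of 5 TPM. The shares of all genes were then 4.02% and 6.38%. Those higher in mesenchyme numbered 1 after quantile normalization (9.46% of all genes) and after either GC correction (9.88%, and 9.93% with the longest transcript). Over all genes, quantile normalization gave 3.33% higher and 0.931% lower in ectoderm, and 4.53% higher and 6.88% lower in mesenchyme. After the GC correction 4.72% of all genes were higher and 2.49% lower in mesenchyme. The cause of these shifts was not tested.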
